A study of Mus musculus with 46 samples.

Results

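The genes described here are 39 markers and regulators of the epithelial state and of epithelial-mesenchymal transition (EMT), chosen by name, out of 57067 genes in the deposited count tables. By role they were 5 junction and surface proteins, 6 keratins, 8 tight junction genes, 4 desmosome genes, 8 epithelial regulators, 6 EMT factors and 2 mesenchymal markers. The first 5 of these sets, 31 genes in all, are called epithelial members. RNA sequencing was done on 46 mouse tumors, with 1 library per tumor, in models of synovial sarcoma. Each mouse carried, in Rosa26, a human fusion that Cre turns on, either SS18::SSX2 (hSS2) or SS18::SSX1 (hSS1), in mice of a mixed strain that the study spells CB57Bl/6-svJ. All tumors, those of the controls included, were started by TATCre, a Cre protein that enters cells, given into the hindlimb at 8 days of age, so the fusion was switched on in whatever limb cells took up the protein. The groups were 13 hSS2 control tumors, 8 hSS2 tumors each with homozygous floxed Pbrm1 (Pbrm1-fl), Arid1a (Arid1a-fl) or Arid1b (Arid1b-fl), 5 hSS1 control tumors and 4 hSS1 Pbrm1-fl tumors. Pbrm1 encodes a subunit of the PBAF chromatin remodeling complex, and Arid1a and Arid1b encode alternative subunits of canonical BAF. The mice were 2 to 6 months old, and tumors were taken when a mouse became morbid, at a time that differed between mice. Tumors of these models range over monophasic, biphasic and poorly differentiated histology, but the labels give no histology for any library.

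Epithelial cells hold together through E-cadherin junctions, tight junctions and desmosomes, and carry keratin filaments inside. In EMT, transcription factors of the SNAI, TWIST and ZEB families bind E-box sequences and repress such genes. ESRP, GRHL and OVOL factors act on the epithelial side, and of these the GRHL and OVOL factors restrain ZEB1. Synovial sarcoma is known for a biphasic form, in which gland-like epithelial structures that stain for keratins and EpCAM lie among spindle cells, and a monophasic form of spindle cells alone.

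Library totals ran from 10137668 to 21294657 counts, and levels are given as CPM, in which counts are divided by the library total after scaling by the trimmed mean of M-values (TMM) within each table. The 3 floxed genes had lower median levels in their own groups than in the matching controls, though 1 Arid1b-fl tumor reached 347 CPM of Arid1b, above the control median of 323. Pbrm1 had medians of 97.1 CPM in hSS2 Pbrm1-fl and 253 CPM in hSS2 control tumors. The 4 hSS1 Pbrm1-fl tumors had 209, 252, 102 and 226 CPM of Pbrm1 against 275 to 373 CPM in the hSS1 controls. The library labelled hSS2 control replicate 9 had 238 CPM of Arid1a, inside the Arid1a-fl range of 229 to 276, so results are also given without it where that changes a call. Each floxed group in hSS2 came from 1 range of mouse numbers (Pbrm1-fl at 2000 and over, Arid1a-fl under 1000, Arid1b-fl at 1000 to under 2000), while the controls came from all 3, and this range was used in alternatives. The 3 hSS2 comparisons share the same 13 control tumors. Epidermal markers summed to 4.63 to 27 CPM over the 46 tumors and were mostly Sbsn. Of the 10 epidermal markers, Flg had 0 counts in 46 of 46 tumors, Ivl in 45, Dsg1a in 37, Krtdap in 28, Krt2 in 21, Lor in 10, Lgals7 in 6, Krt1 and Krt10 in 1 each, and Sbsn in 0. Krt1 and Krt10 reached at most 2.32 and 1.49 CPM, and Lgals7 reached 13.2 CPM. Hair follicle markers summed to at most 2.53 CPM.

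Promoters are shown for 4 epithelial members because the E-box bound by ZEB and SNAI factors can be read in them. Within groups of hSS2 the SD of log2 CPM was 1.15 for Epcam, 1.37 for Rab25 and 1.90 for Cldn6. Grhl3 was steadier, at 0.69, against a median of 0.464 over all genes tested. Each line gives the 250 bases before the RefSeq transcript start in GRCm38.p6, written 5′ to 3′ on the gene's strand, with the E-box letters CACCTG, or CAGGTG on the other strand, in capitals. The windows are Epcam at chr17:87635729-87635978 (plus strand), Rab25 at chr3:88548280-88548529 (minus), Cldn6 at chr17:23679115-23679364 (plus) and Grhl3 at chr4:135573633-135573882 (minus).
Epcam: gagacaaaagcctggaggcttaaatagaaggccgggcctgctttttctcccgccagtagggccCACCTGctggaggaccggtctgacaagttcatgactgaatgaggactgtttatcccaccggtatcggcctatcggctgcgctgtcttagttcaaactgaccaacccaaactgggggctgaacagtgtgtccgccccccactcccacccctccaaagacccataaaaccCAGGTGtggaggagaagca
Rab25: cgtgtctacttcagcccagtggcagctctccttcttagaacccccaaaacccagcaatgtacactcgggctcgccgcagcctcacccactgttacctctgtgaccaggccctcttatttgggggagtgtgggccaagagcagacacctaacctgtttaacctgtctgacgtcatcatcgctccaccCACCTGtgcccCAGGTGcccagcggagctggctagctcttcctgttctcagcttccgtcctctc
Cldn6: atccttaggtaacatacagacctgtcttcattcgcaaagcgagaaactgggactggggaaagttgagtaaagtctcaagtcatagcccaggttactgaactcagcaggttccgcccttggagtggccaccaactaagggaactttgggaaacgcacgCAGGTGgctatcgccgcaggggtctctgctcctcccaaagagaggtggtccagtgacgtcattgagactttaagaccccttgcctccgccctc
Grhl3: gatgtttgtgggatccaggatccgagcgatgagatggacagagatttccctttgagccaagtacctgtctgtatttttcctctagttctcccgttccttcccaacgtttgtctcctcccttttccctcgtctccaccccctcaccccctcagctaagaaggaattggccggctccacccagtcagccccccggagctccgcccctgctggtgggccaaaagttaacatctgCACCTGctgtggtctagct

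The Epcam window held an E-box beginning 187 bases and another 19 bases before the start, and in Rab25 they began 64 and 53 bases before it. Cldn6 had 1 at 93 bases and Grhl3 had 1 at 19 bases. Such letters stood in 15 of the 27 members with a window (55.6%), in 14 of 22 epithelial members (63.6%) and in 1 of 5 EMT factors and mesenchymal markers, Snai1. Of all 32851 RefSeq windows of that length, 17.2% held one, and of all 27025 genes with a window, 19.4%. A match describes the letters alone, and binding was not measured here.

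Per kilobase of merged exon, Vim, the intermediate filament of mesenchymal cells, was the highest member in hSS2 tumors, with a median of 78.9 CPM per kb, and Twist1 followed at 75.9. Tjp1, which encodes the tight junction scaffold ZO-1, had 32.1 CPM per kb, Jup (plakoglobin, shared by adherens junctions and desmosomes) 15.9, Grhl3 13 and Zeb1 12.6. Vim and Twist1 overlapped widely over the 37 tumors, at 33.1 to 241 and 32.6 to 320 CPM per kb, whereas Tjp1 (25.3 to 42.2) lay above Jup (8.99 to 21.8) in each tumor. Jup, Grhl3 (2.88 to 26.9) and Zeb1 (3 to 18.6) overlapped again. The epithelial surface genes stood in the middle of the order, with medians of 4.22 CPM per kb for Epcam and 1.87 for Cdh1. At the bottom were the stratified and luminal keratins Krt14 (0.0381) and Krt7 (0.0281). The place of Krt7 depends on its merged exon length of 7049 bases, against 1758 for Krt14. In CPM the hSS2 control median of Krt7 was the higher, at 0.204 against 0.102. In hSS1 tumors Vim was again first, at 54.4 CPM per kb, but Epcam stood at place 3 with 34.2 and Esrp1 at place 5 with 15.1. Tables were scaled separately, so levels of the fusions are set side by side with no test.

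**Figure D1:**
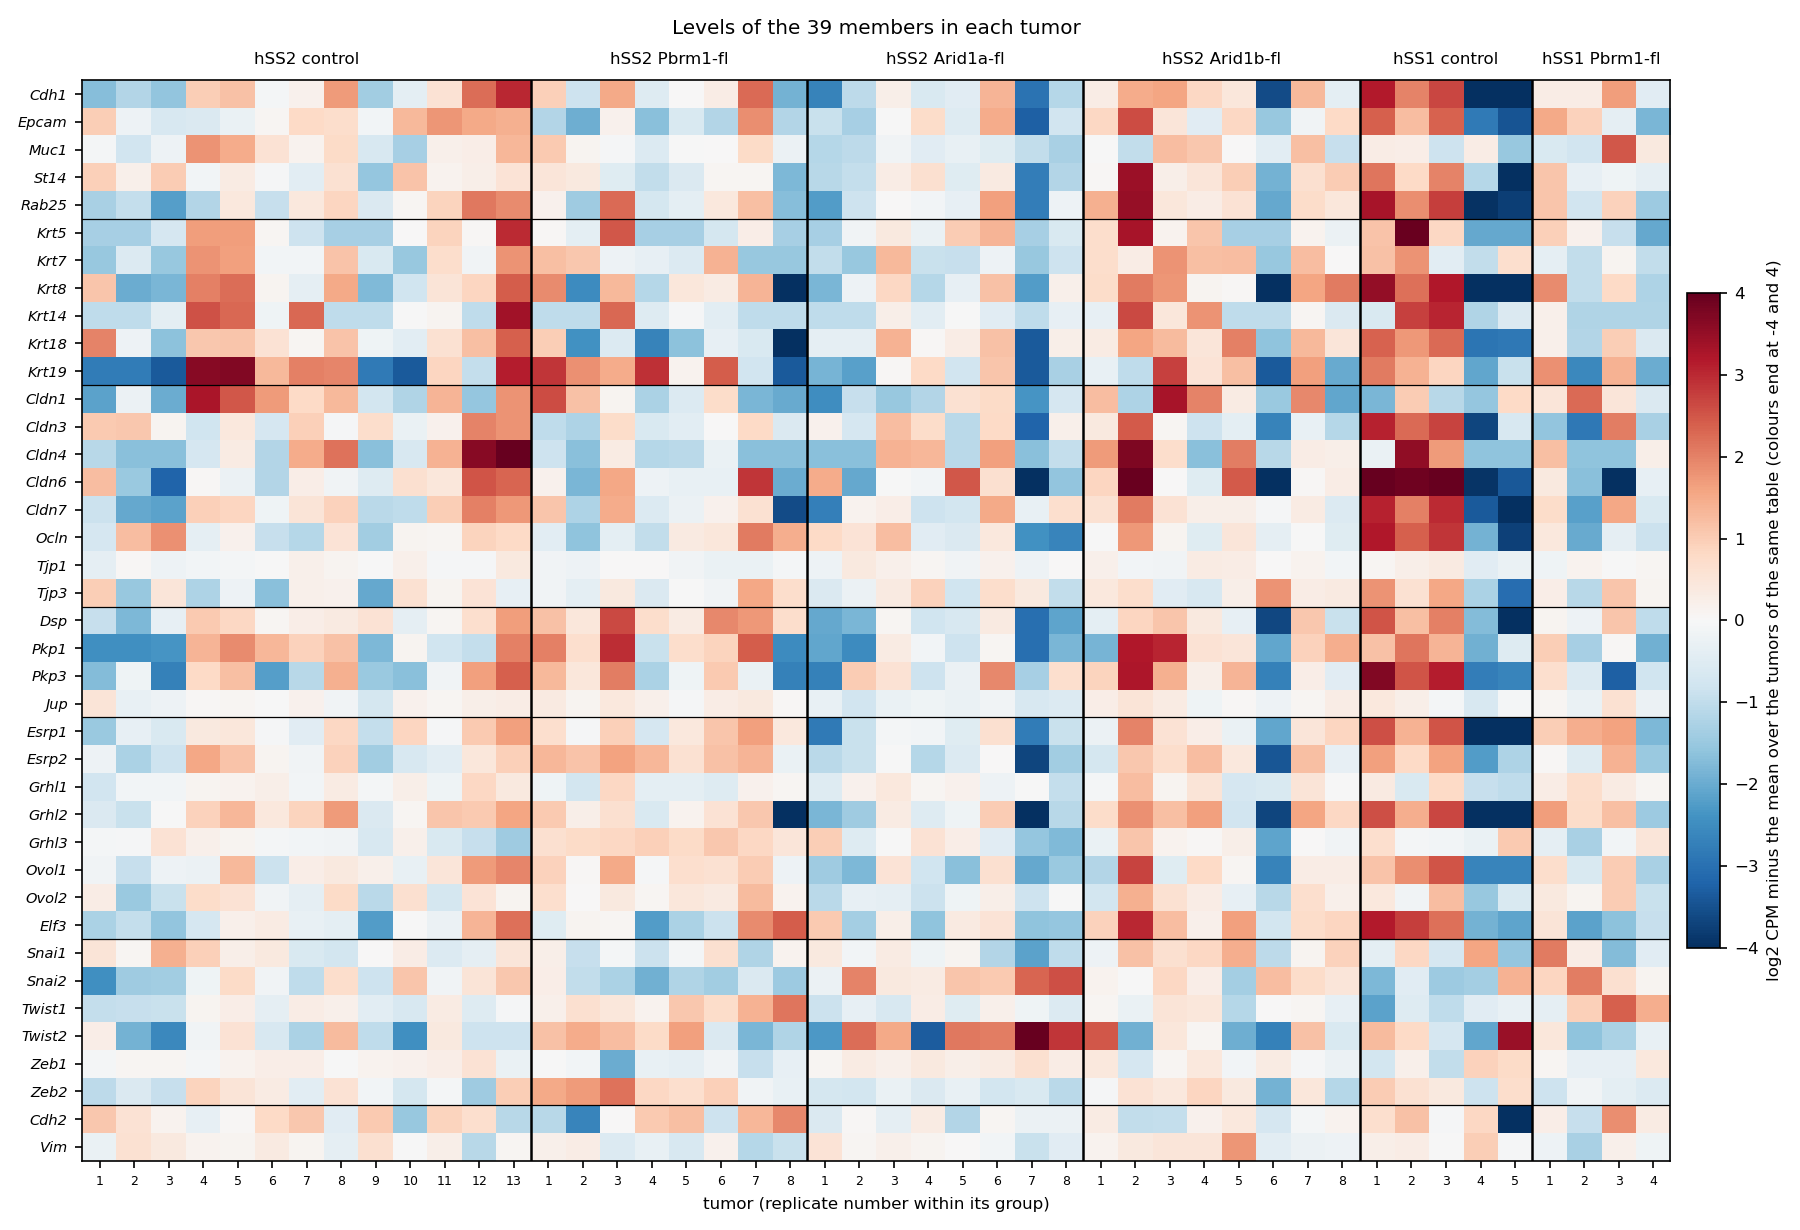
Log2 CPM of each member (rows, grouped by role, with lines between roles) in each of the 46 tumors (columns, by group and replicate number), minus that gene's mean over the tumors of the same table; red is higher, blue is lower. Most epithelial rows are red together in hSS1 control replicates 1 to 3 and blue together in replicates 4 and 5, while Tjp1, Jup and Zeb1 stay pale across most tumors.

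Among the junction and surface proteins, Epcam, a homophilic adhesion protein of epithelia, had a lowest, median and highest level of 6.48, 16.6 and 34.3 CPM in the hSS2 control tumors. The same values were 2.51, 4.42 and 37.3 CPM in Pbrm1-fl, 0.932, 6.46 and 28.2 CPM in Arid1a-fl and 3.4, 15.9 and 61.9 CPM in Arid1b-fl tumors. Every floxed range overlapped that of the controls, yet 5 of 8 Pbrm1-fl tumors lay below the lowest control. These are pieces of whole tumor, in which fewer cells of a type and less RNA per cell cannot be told apart. Cdh1, which encodes E-cadherin, had 2.24, 8.55 and 62.1 CPM in controls, 1.96, 8.54 and 37.4 CPM in Pbrm1-fl, 0.866, 4.25 and 19.6 CPM in Arid1a-fl and 0.519, 12 and 23.1 CPM in Arid1b-fl tumors. Control replicate 13 was the highest hSS2 tumor for Cdh1 and replicate 1 the lowest control. Muc1, an apical mucin, had 3.91, 11.4 and 34.7 CPM in controls and 3.96, 5.96 and 8.89 CPM in Arid1a-fl tumors, all 8 of which lay below the control median. It had 6.77, 9.95 and 20.6 CPM in Pbrm1-fl and 4.94, 9.94 and 23.4 CPM in Arid1b-fl tumors. St14 (the membrane protease matriptase) and Rab25 (a trafficking GTPase of epithelia) had control medians of 28.5 and 2.18 CPM, and both peaked in Arid1b-fl replicate 2, at 260 and 24.4 CPM.

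Keratins 8 and 18 pair in the filaments of simple epithelium. Krt8 had 1.29, 7.89 and 30.1 CPM in hSS2 controls, 0.0502, 7.21 and 20.9 CPM in Pbrm1-fl, 1.07, 4.56 and 12.5 CPM in Arid1a-fl and 0, 13 and 23.8 CPM in Arid1b-fl tumors. Krt18 had 2.04, 10.2 and 35.1 CPM in controls, 0.0502, 3.19 and 13.2 CPM in Pbrm1-fl, 0.533, 7.41 and 17.6 CPM in Arid1a-fl and 2.08, 12.8 and 27.3 CPM in Arid1b-fl tumors. Pbrm1-fl replicate 8 was the lowest of its group for both, and 4 of 8 Pbrm1-fl tumors lay below the lowest control for Krt18. Krt19, a further simple keratin, went from 0 to 16.4 CPM in controls (median 2.18), from 0 to 9.4 CPM in Pbrm1-fl (median 3.92), from 0 to 2.58 CPM in Arid1a-fl (median 0.507) and from 0 to 8.25 CPM in Arid1b-fl tumors (median 1.31). Krt5 and Krt14, the basal pair of stratified epithelium, did not pass the filter on low counts in hSS2. Krt14 had 0, 0.102 and 2.48 CPM in controls, 0, 0.0262 and 1.11 CPM in Pbrm1-fl, 0, 0.0638 and 0.17 CPM in Arid1a-fl and 0, 0.109 and 1.44 CPM in Arid1b-fl tumors. Control replicate 13 was the highest control for Krt5, Krt7, Krt8, Krt14 and Krt18. Levels of members with pseudogenes or close paralogs are uncertain, because the rule for multi-mapping reads was not given in the sources used here.

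Claudins, occludin and ZO proteins build tight junctions. Cldn7, a claudin of many epithelia, had 0.493, 3.72 and 10.7 CPM in hSS2 controls, 0.1, 2.51 and 7.44 CPM in Pbrm1-fl, 0.284, 2.46 and 7.61 CPM in Arid1a-fl and 1.74, 3.14 and 11.3 CPM in Arid1b-fl tumors. Cldn6, a claudin of embryonic epithelia, had 0.141, 2.43 and 13.8 CPM in controls, 0.502, 1.93 and 17.6 CPM in Pbrm1-fl, 0, 2.22 and 13.6 CPM in Arid1a-fl and 0, 2.66 and 37.6 CPM in Arid1b-fl tumors. Medians of both differed little between groups while single tumors spanned a wide range. Cldn1 had 0.177, 2.19 and 12.4 CPM in controls, 0.201, 1.03 and 7.98 CPM in Pbrm1-fl, 0.113, 0.518 and 2.15 CPM in Arid1a-fl and 0.188, 2.25 and 12.8 CPM in Arid1b-fl tumors. Control medians of the other members of this set ran from 0.128 CPM for Cldn4 to 251 CPM for Tjp1, with Ocln at 4.42, Cldn3 at 6.28 and Tjp3 at 13.1. Tjp1 was nearly flat, at 198 to 330 CPM over the controls and 210 to 256 CPM over the Pbrm1-fl tumors.

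Desmosomes join plakoglobin and plakophilins to desmoplakin and the keratin filaments. Jup had 59.8, 105 and 140 CPM in hSS2 controls, 95.9, 118 and 133 CPM in Pbrm1-fl, 57.9, 80.6 and 89.5 CPM in Arid1a-fl and 84.9, 111 and 140 CPM in Arid1b-fl tumors. All 8 Arid1a-fl tumors lay below the control median for Jup, and 10 of 13 controls lay above the highest of them. Dsp (desmoplakin) had medians of 60.8 CPM in controls, 98.4 in Pbrm1-fl, 21.4 in Arid1a-fl and 53.3 in Arid1b-fl tumors. Pkp1, a plakophilin, had 0.0585, 0.961 and 3.97 CPM in controls, 0.0502, 1.62 and 7.56 CPM in Pbrm1-fl, 0, 0.297 and 1.13 CPM in Arid1a-fl and 0.115, 1.57 and 9 CPM in Arid1b-fl tumors, and Pkp3 had a control median of 0.585 CPM.

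The regulators were expressed in all groups. Esrp1, an epithelial splicing factor, had 6.49, 18 and 58.5 CPM in hSS2 controls, 11.6, 27.2 and 58.2 CPM in Pbrm1-fl, 2.5, 11.6 and 28.7 CPM in Arid1a-fl and 4.33, 24.1 and 73.2 CPM in Arid1b-fl tumors. Grhl2, a grainyhead factor that activates junction genes, had 6.66, 23.1 and 40.7 CPM in controls, 0.402, 16.7 and 26.4 CPM in Pbrm1-fl, 0.2, 7.18 and 25.5 CPM in Arid1a-fl and 0.865, 25.7 and 45.2 CPM in Arid1b-fl tumors. In each floxed group 1 tumor fell far under the rest for Grhl2. Grhl3, a grainyhead factor of epidermal barrier formation, had 13, 33.1 and 51.4 CPM in controls and 48.7, 60.3 and 73.3 CPM in Pbrm1-fl tumors, 7 of 8 of which lay above the highest control. It had 10.2, 29.9 and 68.8 CPM in Arid1a-fl and 8.02, 35.5 and 75.1 CPM in Arid1b-fl tumors. The other regulators had control medians of 16.1 CPM for Esrp2, 15.5 for Grhl1, 3.42 for Ovol2, 0.773 for Ovol1 and 0.356 for the ETS factor Elf3.

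**Figure D2:**
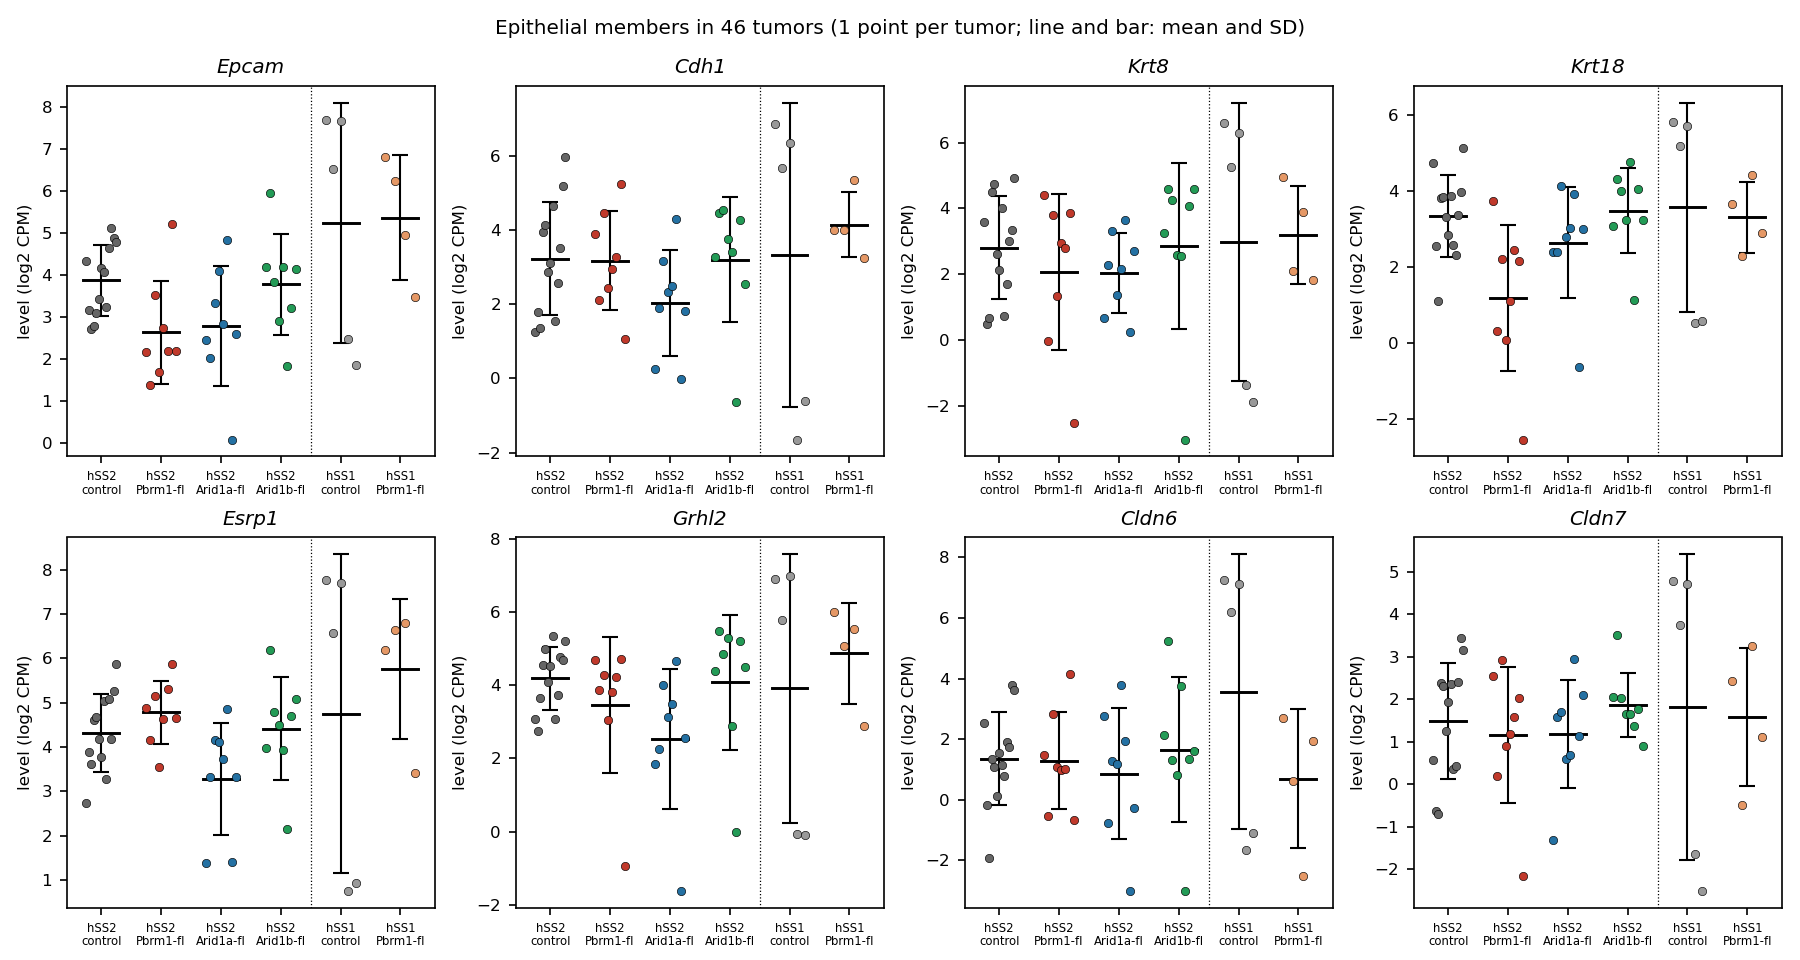
Log2 CPM of 8 epithelial members (1 panel each) by group, with 1 point per tumor and the mean and SD as a line and bar; the dotted line parts hSS2 from hSS1. Within each floxed hSS2 group the points overlap the controls, and the 5 hSS1 control tumors fall into 3 high and 2 low points in every panel.

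Of the EMT factors, Twist1 was abundant, with 60.5, 93 and 148 CPM in hSS2 controls and 129, 190 and 520 CPM in Pbrm1-fl tumors. It had 64.4, 89.8 and 145 CPM in Arid1a-fl and 53.1, 122 and 169 CPM in Arid1b-fl tumors. All 8 Pbrm1-fl tumors lay above the control median and 6 lay above the highest control. Twist2, its close relative, had 0.634, 2.44 and 10.9 CPM in controls, 1.16, 8.77 and 14.1 CPM in Pbrm1-fl, 0.331, 18.9 and 88.8 CPM in Arid1a-fl and 0.577, 3.76 and 25.4 CPM in Arid1b-fl tumors. In Arid1a-fl it was split, 6 tumors above the highest control and 1 below the lowest. Zeb1, a repressor of E-cadherin, had 102, 135 and 182 CPM in controls, 30.8, 99.1 and 121 CPM in Pbrm1-fl, 130, 151 and 191 CPM in Arid1a-fl and 77.6, 125 and 166 CPM in Arid1b-fl tumors. All 8 Pbrm1-fl tumors were below the control median for Zeb1, and 5 were below the lowest control. Zeb2, its paralog, had 39.6, 98 and 210 CPM in controls, 86.1, 196 and 473 CPM in Pbrm1-fl, 50.6, 66.9 and 88.4 CPM in Arid1a-fl and 28.7, 141 and 193 CPM in Arid1b-fl tumors. The highest level of Zeb2 and the lowest of Zeb1 over the hSS2 tumors were both in 1 tumor, Pbrm1-fl replicate 3. By median, too, the Pbrm1-fl group was the highest hSS2 group for Zeb2 and the lowest for Zeb1. Snai2 (SLUG) had 2.89, 14.9 and 35.5 CPM in controls, 4.2, 6.88 and 19.7 CPM in Pbrm1-fl, 14, 34.6 and 98.4 CPM in Arid1a-fl and 6.24, 21.3 and 38.6 CPM in Arid1b-fl tumors. Snai1 had a control median of 5.36 CPM, and its floxed medians ran from 4.1 to 7.65 CPM.

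Cdh2, which encodes N-cadherin, had 26.6, 115 and 159 CPM in hSS2 controls, 12, 116 and 289 CPM in Pbrm1-fl, 33.5, 64.1 and 94.6 CPM in Arid1a-fl and 37.9, 78.5 and 101 CPM in Arid1b-fl tumors. All Arid1a-fl and Arid1b-fl tumors lay below the control median, inside the control range. Vim had 160, 378 and 545 CPM in controls, 157, 262 and 431 CPM in Pbrm1-fl, 188, 360 and 513 CPM in Arid1a-fl and 260, 421 and 1140 CPM in Arid1b-fl tumors, with overlap throughout.

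**Figure D3:**
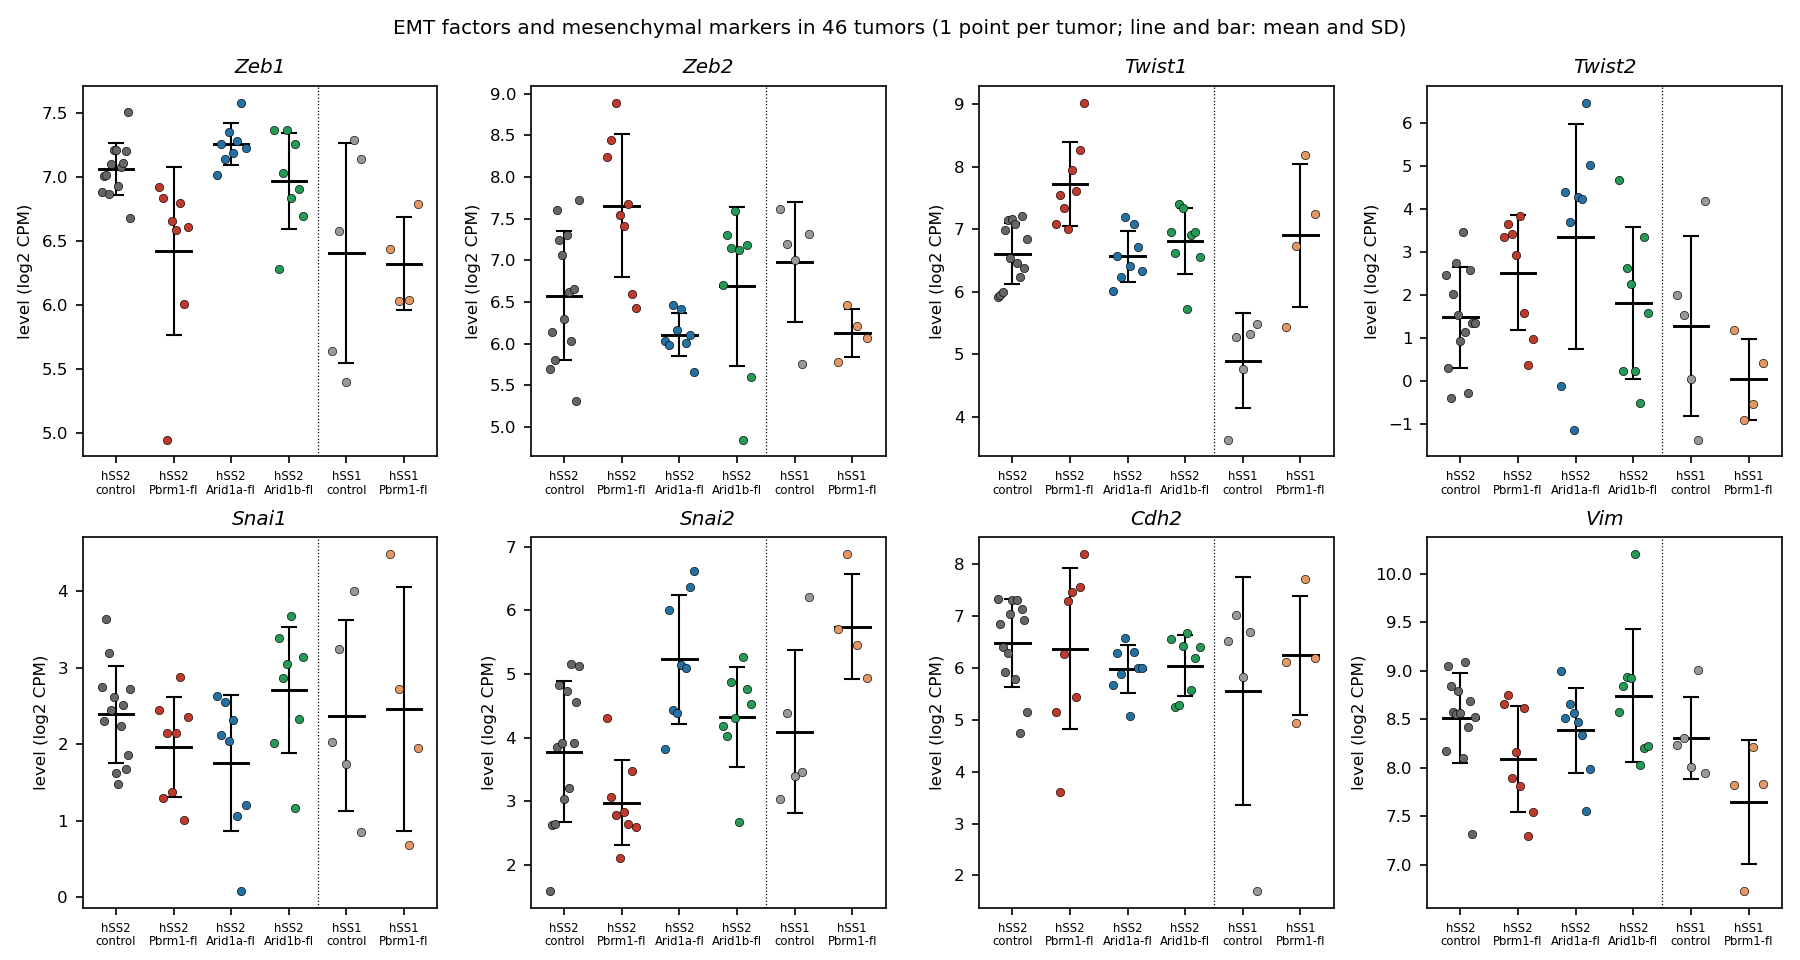
Log2 CPM of the 6 EMT factors, Cdh2 and Vim by group, drawn as in the plot of epithelial members. Twist1 and Zeb2 points of the hSS2 Pbrm1-fl tumors sit high and their Zeb1 points low against the hSS2 controls, and Twist2 and Snai2 sit high in most Arid1a-fl tumors.

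Epithelial members varied far more between tumors of 1 genotype than most genes. Within groups of hSS2 the SD of log2 CPM was 2.28 for Krt19, which exceeded 98.7% of the genes tested, 1.93 for Krt8, 1.90 for Cldn6, 1.5 for Cdh1 and 1.15 for Epcam, against a median of 0.464 over all genes tested. Low levels add counting error to such an SD, as for Krt19. The steady members were Zeb1 (0.38), Jup (0.26) and Tjp1 (0.18). In hSS1 the spread was larger, with an SD of 3.74 for Cldn6, 3.34 for Krt8 and 3.16 for Cdh1, against a median over all genes of 0.411.

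The hSS1 control tumors fell into 3 with high and 2 with low levels of most epithelial members. Cdh1 had 117, 50.5 and 81.5 CPM in replicates 1 to 3 and 0.143 and 0.48 CPM in replicates 4 and 5. Epcam had 207, 91.9, 204, 5.36 and 3.45 CPM in the same order. In both genes the lowest of replicates 1 to 3 lay more than 10 times above the highest of replicates 4 and 5. The same division was seen for Krt8 (95.3, 38.3, 77.4, 0.214 and 0.096 CPM), Krt18 (56.2, 36.9, 52.4, 1.29 and 1.34 CPM) and Cldn6 (154, 72.7, 140, 0.143 and 0.288 CPM). It also held for Cldn7 (27.2, 13.2, 26, 0.143 and 0 CPM), Esrp1 (220, 95.5, 209, 1.5 and 1.73 CPM) and Grhl2 (121, 55.4, 128, 0.786 and 0.768 CPM). Zeb1 ran the other way, at 49.8, 95.5, 42, 156 and 140 CPM. Grhl3, at 72, 41.9, 41.5, 37.6 and 93.7 CPM, did not follow the division. Tjp1 followed it narrowly, at 315, 350, 383, 219 and 249 CPM. Replicate 5 also differed from replicate 4 in mesenchymal genes, with 3.07 against 102 CPM of Cdh2, 74.1 against 10.8 CPM of Snai2 and 17.9 against 0.214 CPM of Twist2. Replicates 1 and 2 had mouse numbers of 2000 and over, and replicates 3 to 5 numbers of 1000 to under 2000. Skeletal muscle markers summed to 573 and 496 CPM in replicates 2 and 3 and to at most 6.15 CPM in the others, and epidermal markers summed to 9.57, 11, 12.2, 6.65 and 5.28 CPM in replicates 1 to 5. The part of other tissue in the division was not tested.

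The 4 hSS1 Pbrm1-fl tumors lay between its ends for Cdh1, at 15.8, 15.8, 40.9 and 9.26 CPM, and for Epcam, at 112, 75, 30.7 and 10.9 CPM. They lay between them also for Krt8 (31, 4.07, 14.6 and 3.42 CPM), Krt18 (12.6, 4.71, 21.5 and 7.28 CPM), Cldn7 (5.22, 0.543, 9.38 and 1.98 CPM), Esrp1 (73.5, 100, 111 and 10.5 CPM) and Grhl2 (64.5, 33.7, 46.7 and 7.19 CPM). Replicate 4 was thus the lowest Pbrm1-fl tumor for Cdh1, Epcam, Krt8, Esrp1 and Grhl2. Grhl3 had 35, 18.2, 41.4 and 62.9 CPM and Zeb1 had 86.6, 65.3, 65.8 and 110 CPM in these 4 tumors. All Zeb1 values and 2 of the Grhl3 values lay inside the control range, and the other 2 Grhl3 values lay below it. Of the members at low levels, Krt19 had 4.26, 2.57, 1.71, 0.0715 and 0.384 CPM in hSS1 controls and 3.51, 0, 2.55 and 0.0899 CPM in Pbrm1-fl tumors. Krt14 had 0.0887, 2.49, 3.17, 0 and 0.096 CPM in controls and 0.285, 0, 0 and 0 CPM in Pbrm1-fl tumors. Pkp1 had 1.33, 2.74, 1.54, 0 and 0.288 CPM and then 1.14, 0.0905, 0.51 and 0 CPM, with overlap as in the other 2. Cldn1 had 0.0887, 1.69, 0.257, 0.143 and 1.44 CPM in controls and 1.14, 4.26, 1.12 and 0.449 CPM in Pbrm1-fl tumors. Muc1 had 10, 9.66, 4.46, 9.86 and 2.69 CPM in controls and 5.22, 4.62, 46.3 and 10.6 CPM in Pbrm1-fl tumors. Jup had 135, 120, 95.2, 64.5 and 95.8 CPM and then 108, 84.9, 154 and 86.8 CPM, so Pbrm1-fl replicate 3 was the highest of all 9 tumors for both. Twist2 had 3.81, 2.74, 0.857, 0.214 and 17.9 CPM in controls and 2.09, 0.362, 0.51 and 1.17 CPM in Pbrm1-fl tumors. Cdh2 had 91.3, 129, 56, 102 and 3.07 CPM in controls and 69.1, 30.2, 210 and 72.7 CPM in Pbrm1-fl tumors. Vim had 303, 316, 258, 515 and 248 CPM and then 225, 106, 296 and 227 CPM, 3 of the 4 below every control.

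The comparison of hSS2 Pbrm1-fl with control asks what PBAF disruption changes. Twist1, Zeb2 and Grhl3 were higher and Zeb1 was lower in Pbrm1-fl tumors, judged by quasi-likelihood fits in edgeR whose p-values were adjusted (Benjamini-Hochberg) over all genes. These were 4 of the 37 members that passed the filter, when 7.35% of all 20083 genes tested were called, 3.4% as higher and 3.95% as lower. Twist1 (chromosome 12, 33957671 to 33959829 in GRCm38) rose by 1.19 on the log2 scale (SE 0.23, edgeR adjusted p = 0.00109). Zeb2 (chromosome 2, 44983632 to 45117395) rose by 1.11 (SE 0.31, edgeR adjusted p = 0.0242) and Grhl3 (chromosome 4, 135541888 to 135573630) by 0.95 (SE 0.28, edgeR adjusted p = 0.0315). Zeb1 (chromosome 18, 5591860 to 5775467) fell by 0.55 (SE 0.16, edgeR adjusted p = 0.0263). The structural epithelial genes did not pass in this fit. Krt18 had -1.71 (edgeR adjusted p = 0.0672), Cldn4 had -3.62 (0.0599), Epcam had -0.87 (0.334) and Cdh1 had -0.27 (0.842). Krt18 and Cldn4 were called by DESeq2 (-1.73 and -3.72, adjusted p = 0.0205 and 0.02) and by edgeR with the macrophage level as a term (-1.82 and -3.63, adjusted p = 0.0295 and 0.049), an alternative chosen after seeing the data. Krt18 was also called without control replicate 3 (-1.85) or Pbrm1-fl replicate 1 (-2.31), and Cldn4 without control replicate 1, 2 or 3 (-3.79 to -3.73). Snai2 had -1.01 (0.133) and Vim had -0.40 (0.329). By role, all 4 desmosome genes had positive values and all 4 keratins tested had negative ones, with 1 of each set under an unadjusted p of 0.05. Some lay near 0, such as Pkp3 at 0.10 (SE 0.79) and Krt19 at -0.06 (SE 0.95). Genes of both kinds outside the members had mixed signs. Dsg2 had -1.36, Dsc2 -1.06 and Pkp2 0.47, and of the keratins Krt23 had 1.90, Krt15 -0.20 and Krt80 -0.71. Of all 37 members 9 were under that limit, as were 22.4% of all genes. Over all members, 18 values were positive and 19 negative, with a median of -0.06 against -0.0042 over all genes. With the mouse number range as a term 26 were positive and 11 negative (median 0.29), and against controls of the same range 27 and 12 (median 0.26).

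Only Twist1 was still called when the 8 Pbrm1-fl tumors were set against the 4 controls of the same mouse number range (log2 fold change 1.59), or with that range as a term. As all 8 came from that range, either fit rests on the same 4 controls, so the latter is no separate check of the former. In the former fit Zeb2 had 1.33, Grhl3 had 0.61 and Zeb1 had -0.43, none past the threshold, and the sign turned for Cdh1 (from -0.27 to 1.14), Snai2 (from -1.01 to 0.22) and Cldn4 (from -3.62 to 0.92), as it did with the range as a term. Without Pbrm1-fl replicate 7, Zeb1 was not called (-0.49) and Epcam was, at -1.69 (edgeR adjusted p = 0.047), and without Pbrm1-fl replicate 1 Snai2 was called, at -1.30 (edgeR adjusted p = 0.0485). Zeb2 was not called without Pbrm1-fl replicate 2 (1.00) or 3 (0.87). Grhl3 was not called without Pbrm1-fl replicate 3, 4, 6 or 7 or control replicate 9 or 11, with values of 0.90 to 0.94. All 9 muscle markers had negative and all 6 macrophage markers positive values in Pbrm1-fl against control, none called. Reads from genes antisense to Zeb2 and Zeb1, Zeb2os among them, can be told apart only with strand-aware counting, and that setting was not given in the sources used here.

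Outside the members, a wider list held 43 junction and differentiation genes of epithelia, 37 of them tested, and 20 mesenchymal genes. In Pbrm1-fl tumors Krt23, a simple keratin, was higher (1.90, edgeR adjusted p = 0.0265) while F11r, which encodes the junctional adhesion molecule JAM-A, was lower (-0.70, 0.0171), as was Epn3, an epsin of epithelia (-1.08, 0.0489). Of the mesenchymal list Tnc, the matrix protein tenascin-C, was lower (-1.67, 0.0333). Of the 37 epithelial genes 1 was thus called as higher and 2 as lower, and of the 20 mesenchymal genes 0 and 1. Over all genes 3.4% were called as higher and 3.95% as lower. The epithelial genes had 14 positive and 23 negative values, and the mesenchymal genes 10 and 10. As single tumors were left out, 1 to 6 genes of the wider list were called, and with the mouse number range as a term 0 were.

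In Arid1a-fl tumors, Twist2 and Snai2 were higher and Jup and Muc1 were lower, 4 of 37 members tested where 3.17% of all genes were called, 1.41% as higher and 1.76% as lower. Twist2 (chromosome 1, 91801461 to 91848028) rose by 2.76 on the log2 scale (SE 0.67, edgeR adjusted p = 0.028) and Snai2 (chromosome 16, 14705852 to 14709385) by 1.42 (SE 0.39, edgeR adjusted p = 0.0413). Jup (chromosome 11, 100368958 to 100397763) fell by 0.42 on the log2 scale (SE 0.11, edgeR adjusted p = 0.0398) and Muc1 (chromosome 3, 89229057 to 89233381) by 1.23 (SE 0.35, edgeR adjusted p = 0.048). Most epithelial members had negative values, 26 of 29 tested, with a median of -0.71, when the median over all genes was -0.0432 and 11059 of 20083 genes were negative. Of the members 12 had an unadjusted p under 0.05, as did 23% of all genes. Most single epithelial genes did not pass, among them Cdh1 at -1.36 (edgeR adjusted p = 0.205), Dsp at -1.25 (0.108), Krt8 at -1.03 (0.387), Epcam at -0.79 (0.363) and Krt18 at -0.62 (0.511). Zeb1 had 0.19 (0.464) and Vim had -0.13 (0.759). In the wider list the epithelial genes had 33 of 37 values negative, and Pkp2, a plakophilin, was lower (-1.44, edgeR adjusted p = 0.0373). As single tumors were left out, 0 to 6 genes of that list were called, with fewer than in the fit of all tumors in 15 of 21 such fits.

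None of the 4 was called without Arid1a-fl replicate 7, which had the highest Twist2, or without replicate 8, which had the highest Snai2, and Twist2 was lost in these fits alone (2.07 and 2.69). None was called when only the 5 controls of the same mouse number range were used, where Twist2 had 3.15, Snai2 0.98, Jup -0.43 and Muc1 -0.94. Snai2 was also lost without Arid1a-fl replicate 2 or 5 or control replicate 4, 7, 9 or 12, with values of 1.17 to 1.47 over its 8 such fits. Jup was lost in 9 of 21 such fits (-0.44 to -0.37), the others being those without Arid1a-fl replicate 1, 2 or 5 or control replicate 7, 11, 12 or 13. Muc1 was lost in 14 of 21 (-1.29 to -1.05), the others being those without Arid1a-fl replicate 1, 2, 4 or 5 or control replicates 4 to 8 or 11 to 13. Dsp was called without Arid1a-fl replicate 6. Muscle marker sums had a median of 1230 CPM (1.47 to 9520) in Arid1a-fl and 3070 CPM (3.39 to 40400) in control tumors, and adipocyte marker sums of 3.42 and 11.6 CPM, with all 9 muscle and all 5 adipocyte markers negative and none called. Of 6 synovial sarcoma markers, Igf2 (-1.86) and Zic1 (-4.11) were lower in Arid1a-fl tumors. With the muscle level as a term, an alternative chosen after seeing the data, Twist2 and Snai2 were called, and Jup (-0.41) and Muc1 (-0.84) were not.

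In Arid1b-fl tumors, no member was called by edgeR or by DESeq2, where edgeR called 0.0548% of all genes, 0.0249% as higher and 0.0299% as lower. An unadjusted p under 0.05 was found for 1 member, St14, and for 6.22% of all genes. Of 37 values 28 were positive, with a median of 0.20, when 10230 of 20083 genes were positive with a median of 0.0045. Without Arid1b-fl replicate 2, 19 members were positive and 18 negative, with a median of 0.0043. Cdh2 had -0.54 (edgeR adjusted p = 0.872) and Zeb1 had -0.07 (0.986). No gene of the wider list was called.

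**Figure D4:**
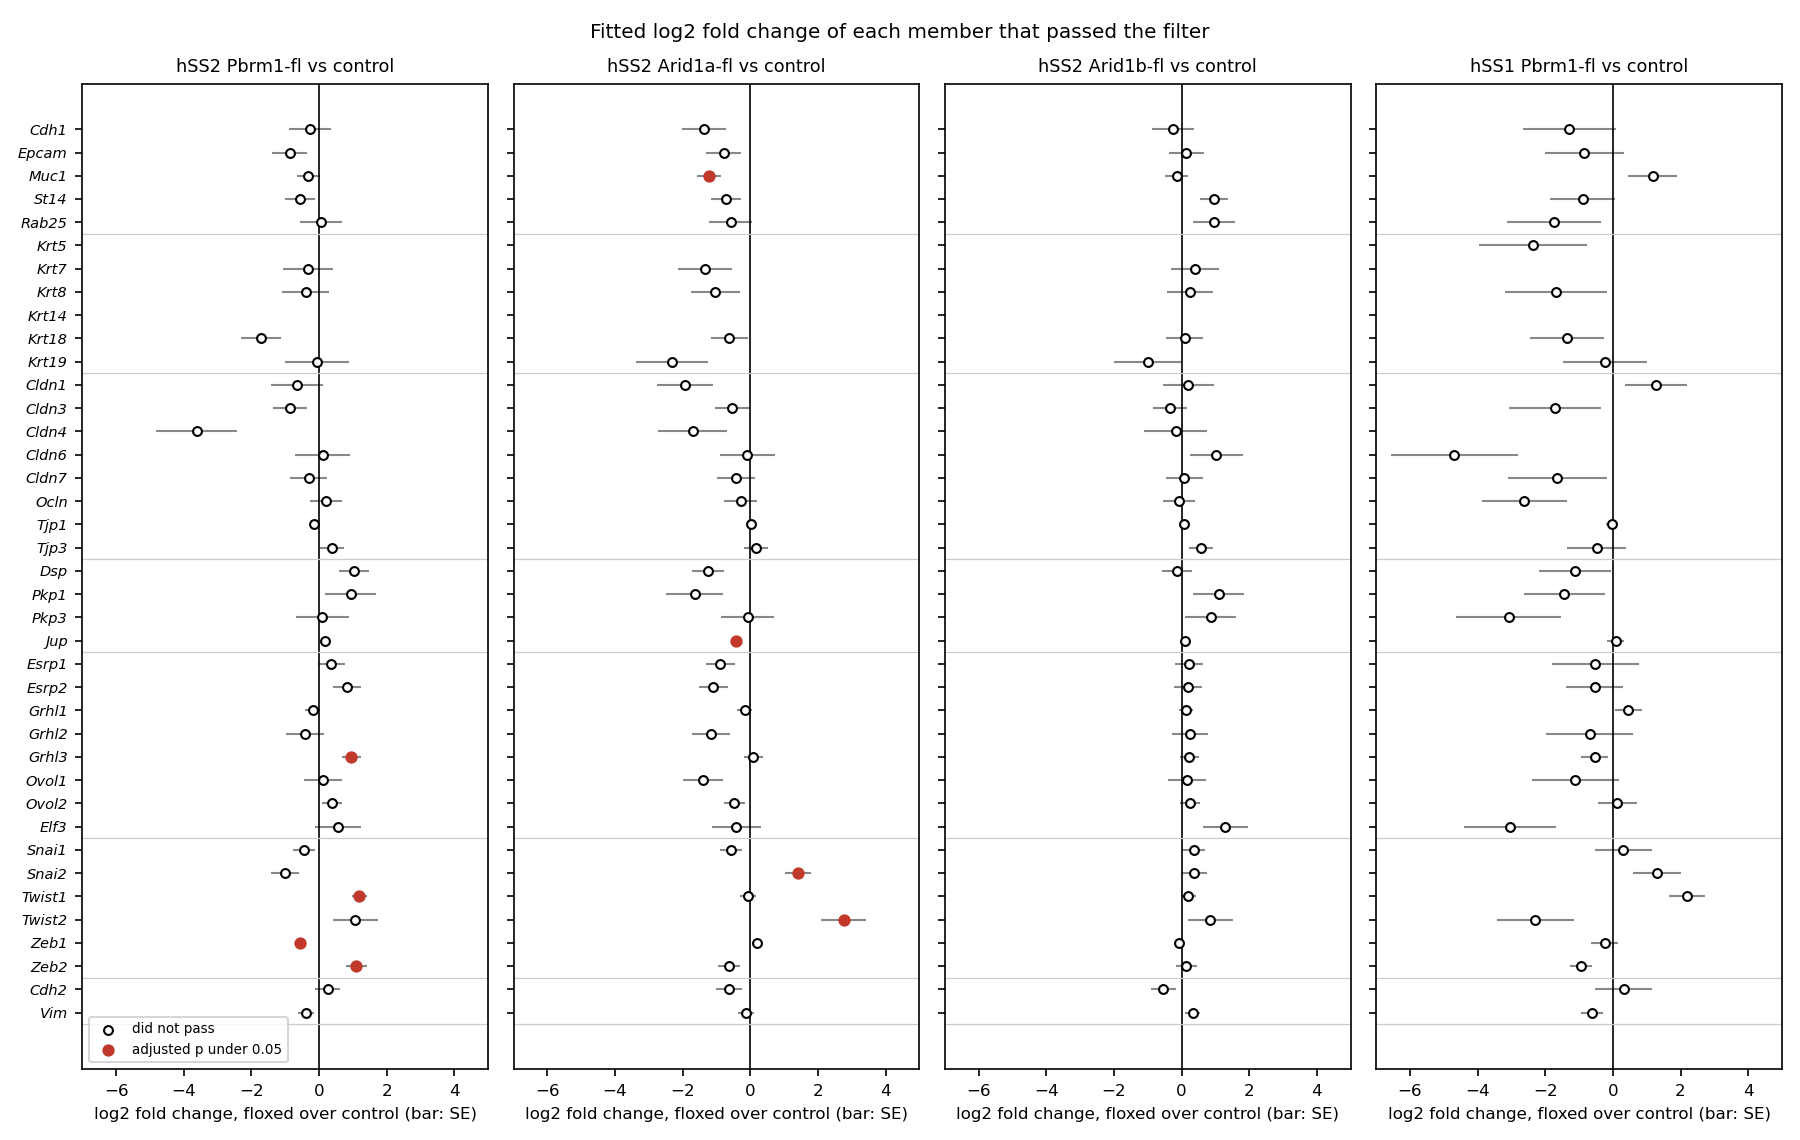
Log2 fold change of floxed over control for each member that passed the filter (rows, by role), 1 panel per comparison, with the SE as a bar; filled red points passed an adjusted p of 0.05. Epithelial rows lie mostly left of 0 for hSS2 Arid1a-fl and, with wide bars, for hSS1 Pbrm1-fl, and 4 members are filled in each of the first 2 panels.

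In hSS1, Pbrm1-fl against control tested 36 members and edgeR called none, where 0.00562% of all genes were called, and 3 members had an unadjusted p under 0.05, as did 17.2% of all genes. Twist1 had 12.3, 38.7, 27.1, 40 and 44.8 CPM in the 5 controls and 43.3, 106, 291 and 152 CPM in the 4 Pbrm1-fl tumors, 3 of them above every control. Its log2 fold change was 2.18 (SE 0.54, edgeR adjusted p = 0.131), and DESeq2, which called 1 member, gave 2.19 (adjusted p = 0.00401). Zeb2 had 196, 147, 127, 53.9 and 159 CPM in controls and 54.7, 87.7, 73.9 and 67.1 CPM in floxed tumors, so that 4 of 5 controls lay above every floxed tumor (log2 fold change -0.95, edgeR adjusted p = 0.21). Snai2 had 8.07, 20.6, 10.3, 10.8 and 74.1 CPM in controls and 51.6, 118, 44 and 30.5 CPM in floxed tumors (1.30, 0.381). Cldn6 reached 6.27, 1.36, 0 and 3.69 CPM in the floxed tumors, under each of the first 3 controls (-4.69, 0.253). Epcam had -0.84 (0.744) and Cdh1 had -1.29 (0.662), and the control tumors were divided for both genes. Over all members 27 of 36 values were negative, with a median of -0.77 that ranged from -1.06 to -0.42 as single tumors were left out. With the mouse number range as a term 22 were negative and 14 positive (median -0.36), and against controls of the same range 20 and 13 (median -0.35).

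A test of the difference between the Pbrm1-fl effects in hSS1 and hSS2 found 1 of 39 members, Zeb2, where 2.86% of all 21725 genes were called, 1.7% as higher and 1.16% as lower. For Zeb2 the effect in hSS1 minus that in hSS2 was -2.05 on the log2 scale (SE 0.565, edgeR adjusted p = 0.0371), with a higher mean in hSS2 Pbrm1-fl than in hSS2 control tumors and a lower mean in hSS1 Pbrm1-fl than in hSS1 control tumors. All 6 macrophage markers were also negative in this difference (median -0.97), none called. In Pbrm1-fl against control, 5 of these 6 were negative in hSS1 and all 6 positive in hSS2. With the macrophage level as a term, an alternative chosen after seeing the data, Zeb2 was still called. The part of macrophages in the Zeb2 difference was not tested. Snai2 had a difference of 2.31 (0.0875), Cldn6 of -4.79 (0.119) and Twist1 of 0.99 (0.256). The floxed gene itself, Pbrm1, had -0.75 in hSS1 (edgeR adjusted p = 0.193) and -1.27 in hSS2 (4.2e-12), and the difference of 0.51 did not pass (0.125). In this joint fit the fusion and the count table cannot be told apart, and neither can the fusion and the extent of Pbrm1 loss. An unadjusted p under 0.05 was found for 11 members and for 18.9% of all genes. The Zeb2 call was lost without hSS2 Pbrm1-fl replicate 2 or 3, without hSS1 control replicate 1, 2 or 3 and without any of the 4 hSS1 Pbrm1-fl tumors, with values of -2.17 to -1.82 in those 9 fits, and with the mouse number range as a term (-2.02). Snai2 was called without hSS2 Pbrm1-fl replicate 1 (2.59) or hSS1 control replicate 5 (3.31). Of the wider list Myo5b, a motor of apical trafficking, had -3.39 (edgeR adjusted p = 0.0256), and 0 to 6 genes of that list were called as single tumors were left out.

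Relations between members were read over the 37 hSS2 tumors after centering log2 CPM on group and mouse number range, with 12 pairs tested by permutation. Epcam rose and fell with Esrp1 (Pearson r = 0.677, Spearman rho = 0.5, adjusted permutation p = 4e-05 and 0.0078), Cdh1 (r = 0.63, rho = 0.468, adjusted permutation p = 6e-05 and 0.0105), Grhl2 (r = 0.593, rho = 0.404, 0.000504 and 0.0177), Krt8 (r = 0.547, rho = 0.463, 0.00122 and 0.0105) and Cldn7 (r = 0.386, rho = 0.407, 0.0285 and 0.0177). Against Zeb1 it ran inversely (r = -0.49, rho = -0.442, adjusted permutation p = 0.0054 and 0.0134). The filament partners Krt8 and Krt18 were the closest of the 12 pairs (r = 0.833, rho = 0.826, adjusted permutation p = 4e-05 and 0.00012), and the basal pair Krt5 and Krt14 also moved together at their low levels (r = 0.808, rho = 0.656, 4e-05 and 0.00012). Esrp1 and Zeb1 were weakly inverse (r = -0.346, rho = -0.427, adjusted permutation p = 0.049 and 0.0149). Its p for r lies at the threshold, and the permutation made no allowance for the means removed by centering, so that call is uncertain. No relation passed for Epcam with Krt19 (r = 0.155, rho = 0.127, adjusted permutation p = 0.428 and 0.452), Epcam with Vim (r = -0.0473, rho = -0.135, 0.78 and 0.452) or Cdh1 with Cdh2 (r = -0.116, rho = -0.196, 0.537 and 0.296). Raw permutation p-values were 1e-05, the smallest that the resamples can give, for Epcam with Esrp1, Krt8 with Krt18 and Krt5 with Krt14. They were 2e-05 for Epcam with Cdh1, 0.00021 with Grhl2, 0.00061 with Krt8, 0.019 with Cldn7 and 0.00315 with Zeb1, and 0.0368 for Esrp1 with Zeb1.

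Leaving out the 2 tumors farthest from the median of the first gene left each of these 9 relations past the threshold, with r of 0.611 for Epcam and Esrp1, 0.558 for Epcam and Cdh1, 0.477 for Epcam and Grhl2, 0.523 for Epcam and Krt8, 0.414 for Epcam and Cldn7, -0.444 for Epcam and Zeb1, 0.777 for Krt8 and Krt18, 0.736 for Krt5 and Krt14, and -0.398 for Esrp1 and Zeb1. Within the 3 mouse number ranges, of 13, 12 and 12 tumors in rising order, r was 0.735, 0.59 and 0.525 for Epcam and Cdh1. For Epcam and Esrp1 it was 0.789, 0.738 and 0.417, and for Epcam and Grhl2 0.912, 0.574 and 0.224. For Epcam and Krt8 it was 0.627, 0.636 and 0.463, and for Epcam and Cldn7 0.364, 0.625 and 0.34. The inverse relation of Epcam and Zeb1 was -0.188, -0.716 and -0.6, and that of Esrp1 and Zeb1 was -0.16, -0.719 and -0.332. The keratin pairs were steady, at 0.844, 0.813 and 0.916 for Krt8 and Krt18 and 0.815, 0.784 and 0.831 for Krt5 and Krt14. In the 13 control tumors alone the keratin pairs passed (r = 0.866 and 0.846) and no other pair did. There Epcam had r = 0.0807 with Esrp1, 0.234 with Cdh1, 0.25 with Grhl2, 0.339 with Krt8, 0.35 with Cldn7 and 0.0084 with Zeb1. Esrp1 with Zeb1 had -0.281. In the 24 floxed tumors alone, with no test, Epcam had r = 0.802, 0.746, 0.63, 0.595, 0.41 and -0.549 with the same genes in that order. The relations of Epcam over all 37 tumors thus rested mostly on the floxed tumors.

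**Figure D5:**
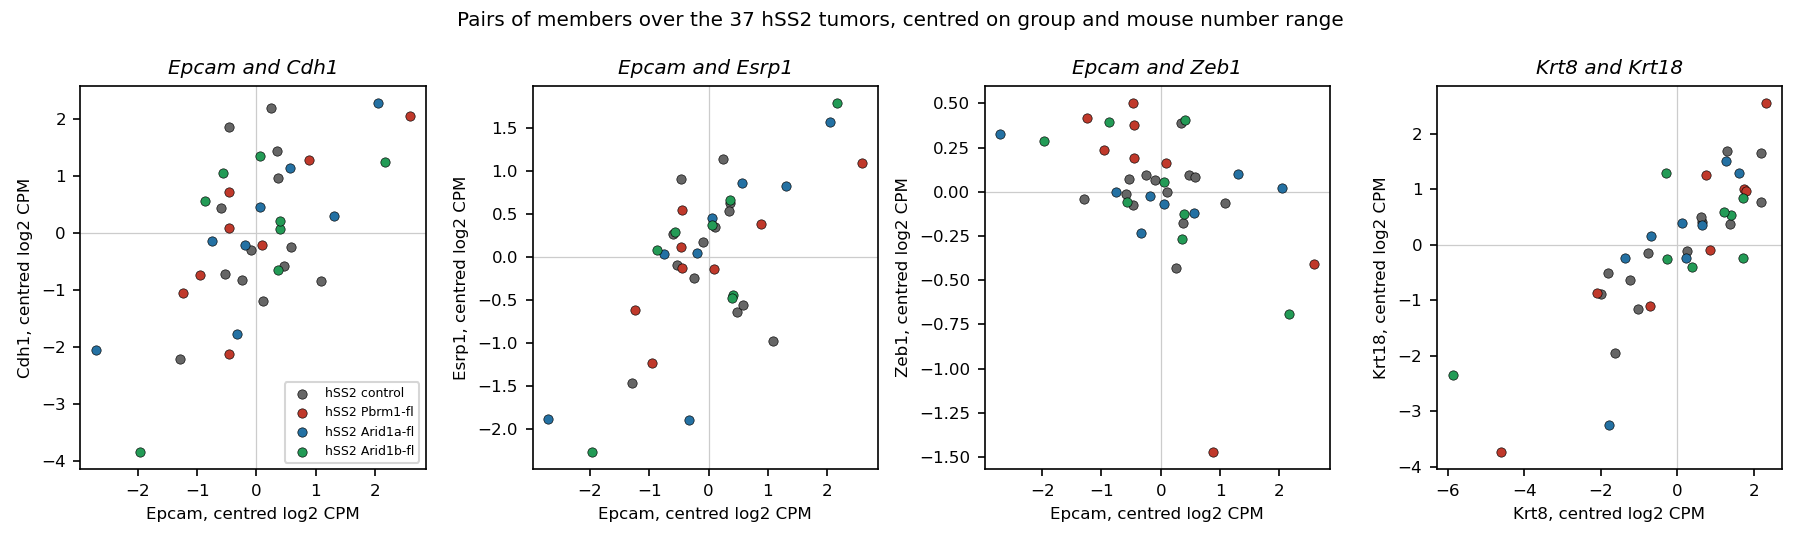
Centered log2 CPM of 4 pairs of members over the 37 hSS2 tumors, 1 point per tumor, colored by group. Epcam and Cdh1, Epcam and Esrp1, and Krt8 and Krt18 rise together (r = 0.63, 0.677 and 0.833), and Epcam and Zeb1 run inversely (r = -0.49).

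Over all 406 pairs of the 29 epithelial members tested in hSS2, r had a median of 0.483 and was positive in 382 pairs. The pairs closer than Krt8 with Krt18 were Krt7 with Krt19 (0.866), Dsp with Esrp2 (0.855), Grhl2 with Esrp2 (0.84), and Cdh1 with Esrp2 (0.854), Rab25 (0.846), Krt8 (0.845), Esrp1 (0.837) and Dsp (0.836). The median r of a member with the epithelial members was 0.67 for Rab25 and 0.662 for Cdh1 at the upper end and 0.041 for Tjp3 and 0.12 for Tjp1 at the lower. Among EMT factors it was -0.31 for Zeb1, -0.008 for Snai2, 0.015 for Twist1, 0.035 for Twist2, 0.295 for Snai1 and 0.33 for Zeb2, so the ZEB paralogs stood on opposite sides of 0. Among 17636 genes of at least 1 CPM on average, the 10 most like Epcam in these 37 tumors included Ttll10 (r = 0.811), Rab25 (0.797), Cldn6 (0.779), 4631405K08Rik, Cldn3 (0.767), Myo5b, Cgn, Igsf9 and Bicdl2 (0.725). Of those named, 3 are members and 2, Myo5b and the tight junction gene Cgn, are in the wider list. Zeb1 came at place 17601 of 17636. For Krt14 the closest were Zfp809 (r = 0.679), Fetub, Gm48478, Kng1, Zc3h11a, Ppp1r13l, Pkp1 (0.62), Aldh3b2, Sstr2 and Gm12352 (0.614), with its partner Krt5 below the 1 CPM limit. These are descriptions over tumors that share libraries and depth.

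Some members moved with markers of other cells. Over the 37 hSS2 tumors, the summed skeletal muscle markers had r = 0.794 with Cldn1, 0.628 with Krt19, 0.624 with Krt7 and 0.616 with Twist2. Macrophage markers had r = 0.842 with Krt7, 0.739 with Cldn1, 0.733 with Krt19, 0.719 with Zeb2 and 0.657 with Vim. Adipocyte markers had r = 0.859 with Cldn1, and fibroblast markers had r = 0.636 with Snai2. The fibroblast sum was dominated by Pdgfra, with a median of 413 CPM and a lowest level of 115 CPM over the 46 tumors. Medians were 65.7 CPM for Dcn, 48.2 for Col15a1, 11.8 for Lum, 1.21 for Dpt and 0.755 for Pi16. Whether Pdgfra RNA came from fibroblasts or from tumor cells was not tested. With each of these marker lists Epcam had values near 0, at -0.092 with muscle, -0.174 with macrophage, -0.079 with adipocyte and -0.181 with fibroblast markers. Other epithelial members did move with them. Cdh1 had r = 0.432 with muscle, 0.318 with macrophage and 0.489 with adipocyte markers. In the same order Krt8 had 0.404, 0.375 and 0.457, and Muc1 had 0.555, 0.506 and 0.633. Cldn3, like Epcam, lay near 0 (-0.034, -0.005 and -0.066). With epidermal keratinocyte markers Epcam had r = 0.407, Krt5 0.372, Krt14 0.322 and Zeb1 -0.517. With the 6 synovial sarcoma markers Zeb1 had r = 0.553 and Epcam -0.331. That sum was dominated by Cd24a and Tle1, with medians of 348 and 278 CPM over the 46 tumors, and Cd24a is also in the wider epithelial list. Medians were 38.6 CPM for Sox2, 34.1 for Bcl2, 24.9 for Igf2 and 4.82 for Zic1. Macrophage sums had medians of 180 CPM (57.9 to 415) in hSS2 control and 224 CPM (30.2 to 625) in Pbrm1-fl tumors. With that level as a term, again an alternative chosen after seeing the data, Zeb2 was still called in Pbrm1-fl tumors. Such a term, a sum of 6 markers, does not show how much Zeb2 RNA came from macrophages. The part of these cells in the levels of Zeb2, Cldn1, Krt7, Krt19 or any other member was not tested.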

How the data were processed

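The libraries came from ribosomal RNA-depleted, stranded, paired-end sequencing of 150 bases per read. The authors aligned reads with STAR 2.7.11 to mm10 and deposited 2 tables of raw counts per Ensembl gene made with featureCounts 1.6.3. The annotation release, the strand setting and the handling of multi-mapping reads were not given in the sources used here. Groups and mouse numbers came from the sample titles, and replicates were numbered in accession order. Identifiers of 91.5% (hSS2) and 91.3% (hSS1) matched GENCODE M21 of GRCm38, which gave symbols, positions and exon lengths. No pair of libraries agreed within counting noise. Low counts were removed by filterByExpr (grouped by genotype), TMM factors were computed, and robust two-sided quasi-likelihood F-tests were run in edgeR 4.0.16 (R 4.3.3). The 37 hSS2 libraries shared 1 fit, the 9 hSS1 libraries another, and all 46 the test of the difference between fusions. P-values were adjusted by Benjamini-Hochberg over all genes at a threshold of 0.05. Of the members, 37 passed the filter in hSS2 (not Krt5 and Krt14), 36 in hSS1 (not Krt14, Krt7 and Cldn4) and 39 in the joint fit. Relations used log2 CPM with a prior count of 2 and two-sided permutation tests of 100000 resamples (Python 3.11.15, scipy 1.17.1), adjusted over the 12 pairs. Centered values were permuted over all tumors with no allowance for the means removed, which makes these p-values somewhat too small. Steps were tested on simulated data.

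The members, the gene lists, the pairs and the tests were chosen with earlier results of these data known. Values by sample were given for 22 members: 13 chosen by name, each member called in a comparison, and the 3 others with the largest spread. Of the wider list, up to 6 called genes per comparison were chosen by adjusted p, and 10 genes each were chosen for likeness to Epcam and to Krt14 (Pearson r). Some genes that these rules chose are not reported here. Alternatives were DESeq2 1.42.0, its size factors, no filter, a prior count of 0.5, the mouse number range, fits of 2 groups and leaving out each library. Overlapping genes on the other strand were annotated for 18 members and on the same strand for 5. Where labels do not say otherwise, each tumor is 1 mouse and p-values measure the spread between tumors.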

Additional observations from a re-analysis of the deposited data

Results flagged for a closer look

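In 110 groups of 4 to 10 tumors (22 members in 5 groups), 14 held a tumor set apart from the rest on the log2 scale by Dixon's test at the 95% level, when chance flags about 1 in 20 groups. The number of flags was not compared with that share, since some members were chosen for their spread or their calls and members that vary together flag the same tumor. Arid1b-fl replicate 6 was the low tumor for 5 members, with 0.519 CPM of Cdh1 (next lowest 5.74), 0 CPM of Krt8 (5.75), 2.08 CPM of Krt18 (8.34), 0.865 CPM of Grhl2 (7.36) and 8.02 CPM of Grhl3 (29). Arid1a-fl replicate 7 was low for Krt18, at 0.533 CPM against 5.16 in the next, and for Grhl2, at 0.2 against 3.46 CPM. Pbrm1-fl replicate 8 was low for Grhl2, at 0.402 against 8.14 CPM. Pbrm1-fl replicate 3 was low for Zeb1, at 30.8 against 64.3 CPM, and high for Krt14, at 1.11 against 0.12 CPM. Arid1b-fl replicate 2 was high for Cldn7, at 11.3 against 4.02 CPM, and Arid1b-fl replicate 5 for Vim, at 1140 against 492 CPM. In hSS1, control replicate 5 was low for Cdh2, at 3.07 against 56 CPM, and Pbrm1-fl replicate 1 was high for Krt14, at 0.285 CPM from 3 counts when the other 3 tumors had 0.

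The Pbrm1-fl effect on Zeb2 differed between the fusions by -2.05 (hSS1 minus hSS2, log2 scale, edgeR quasi-likelihood adjusted p = 0.0371). The causes of these values were not tested.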

How the results depend on the processing

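Of the members, edgeR called 4 in Pbrm1-fl, 4 in Arid1a-fl, 0 in Arid1b-fl and 0 in hSS1 Pbrm1-fl tumors and 1 in the difference between fusions. In Pbrm1-fl tumors, DESeq2 and the macrophage level as a term each called 6 (Krt18 and Cldn4 in addition), 3 were called without the low-count filter, 1 was called with the mouse number range as a term, 1 against controls of the same range and 2 with only the 2 groups in the fit. In Arid1a-fl tumors, DESeq2 called 4, 1 was called without the low-count filter, 1 with the range as a term, 2 with the muscle level as a term, 0 against controls of the same range and 1 with only the 2 groups in the fit. DESeq2 called 1 in hSS1 and 3 for the difference between fusions, where no filter, the range as a term and controls of the same range each gave 0. Leaving out single libraries gave 2 to 6 calls in Pbrm1-fl, 0 to 5 in Arid1a-fl, 0 to 0 in Arid1b-fl and in hSS1, and 0 to 2 for the difference. In Pbrm1-fl tumors some values changed sign. With the range as a term or controls of the same range, Snai2 had 0.22, Cldn4 had 0.92 and Cdh1 had 1.14. All 8 Pbrm1-fl tumors came from 1 range, so both settings rest on the same 4 controls and are not separate checks. With the muscle level Cdh1 had 0.27. Cdh1 ran from -0.73 to 0.14 as libraries were left out. Twist1 in hSS2 Pbrm1-fl tumors was called in each of these fits. Of the 12 relations, 9 passed over the 37 tumors and 2 in the controls alone, where Epcam with Zeb1 had r = 0.0084. Esrp1 with Zeb1 did not pass with a prior count of 0.5 (-0.34) or centered on group only (-0.30). The cause of these changes was not tested. The study used littermates as controls, but the labels name no litter. No paired analysis was therefore made, and shared litters were not modelled. Counts of 0 to a few limit Krt5, Krt7, Krt14 and Cldn4, for which 1 tumor can set a value.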
